A study of Homo sapiens with 6 samples.

Results

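The transporters described here are the genes of 6 solute carrier (SLC) families that move amino acids and close relatives across membranes: SLC1, SLC6, SLC7, SLC36, SLC38 and SLC43. Members were found by gene symbol in the deposited table, with SLC7A11, the cystine importer called xCT, left out by the rule. The rule found 56 of the 61806 genes in the table. It used no measured value. It also takes relatives whose main cargo is not an amino acid, such as SLC6A8 for creatine, SLC6A4 for serotonin and SLC43A3 for nucleobases.

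Poly(A) RNA was sequenced in 6 libraries from HCT116, a cell line derived from a human colorectal carcinoma and kept in McCoy's 5A medium. The si-NC group (3 libraries, genotype label wildtype) is the control, and the si-STRIP2 group (3 libraries) is labelled as a knockdown of STRIP2 by short interfering RNA. The labels give no dose, time or siRNA sequence, and nothing in them tells whether replicates are separate cultures, so the p-values measure the spread between these libraries, which may be technical. STRIP2 encodes a subunit of a phosphatase and kinase complex, and the comparison asked which transcripts differed after its knockdown. In this design the effects of lower STRIP2 and other effects of the siRNA treatment cannot be told apart.

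Amino acid carriers work as a network. Sodium-coupled carriers such as SLC38A1 and SLC38A2 bring in net amounts of glutamine and other small neutral amino acids. Obligate exchangers such as SLC7A5, known as LAT1, and SLC1A5, known as ASCT2, then trade them for amino acids the cell lacks. Several light chains of the SLC7 family reach the cell surface only when joined to the heavy chain SLC3A2, which SLC7A5 shares with SLC7A11. Lysosomal carriers release amino acids from degraded protein, and the signal reaches the growth kinase complex mTORC1. Transcription of several carriers is raised by the factor ATF4 when amino acids run short. Tumours of the colon are known for high SLC7A5 and SLC1A5.

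Levels are FPKM, fragments per kilobase of exon scaled to the library's total. Comparison of levels between genes rests on the exonic size given for each gene. Gene positions are those of the deposited table (GRCh38). Total counts were 17184963 to 21721218 per library. STRIP2 itself was at 3.19, 3.77 and 3.81 FPKM in si-NC and 2.71, 2.53 and 2.58 FPKM in si-STRIP2. It fell, with 72.6% of the control level left (edgeR adjusted p = 1.62e-05), and the groups did not overlap. Mitochondrial genes held 4.88% to 8.88% of counts in si-NC and 5.73% to 6.30% in si-STRIP2. The epithelial markers EPCAM, KRT8, KRT18 and KRT19 had means of 126 to 206 FPKM in both groups. CDH1, the gene of E-cadherin, fell from 36.6 ± 1.43 to 24.2 ± 0.318 FPKM (SD, n = 3; edgeR adjusted p = 1.57e-14). KRT18 was lower and KRT19 higher in si-STRIP2 (edgeR adjusted p = 0.000278 and 1.85e-05). CDX1 had 0 counts and VIL1 at most 3, so these intestinal markers were at or near 0. CDX2, an intestinal transcription factor, rose from 2.51 ± 0.270 to 3.28 ± 0.253 FPKM, and KRT20 fell from 0.627 ± 0.145 to 0.313 ± 0.0751 (edgeR adjusted p = 0.00285 and 0.00935). Of the 9 epithelial markers 7 were tested, 4 of them lower and 2 higher, where 27.0% of all tested genes were lower and 27.8% higher. The markers' part in the results below was not tested. Of the 10 markers of other cell types, 8 did not pass the filter on low counts, and COL1A1 and ACTA2 were near 2 and 1 FPKM in both groups. In bulk RNA, fewer cells of a type and less RNA per cell cannot be told apart.

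Of the 56 members, 28 had enough counts to be tested, and each of these had at least 10 counts in every library of both groups. The other 28 were not detected or nearly so. SLC6A2, SLC6A7, SLC6A11, SLC6A18, SLC6A19, SLC7A13, SLC7A14 and SLC38A11 had 0 counts in all libraries, which allows up to 0.138 CPM (counts scaled to the library's total) in the deepest library and 0.175 in the shallowest (3 counts, counting error only). Another 12 members had at most 2 counts in any library: SLC1A6, SLC1A7, SLC6A3, SLC6A5, SLC6A12, SLC6A15, SLC7A3, SLC7A4, SLC7A10, SLC36A2, SLC36A3 and SLC38A8. The last 8 had 12 counts at most. Among them, SLC7A9, the light chain of the renal cystine carrier, had 0, 3 and 2 counts in si-NC and 5, 8 and 7 in si-STRIP2. SLC6A14, a broad carrier of neutral and cationic amino acids, had 2, 2 and 4 counts in si-NC and 0 in each si-STRIP2 library. SLC38A4 had 1, 4 and 1 counts against 9, 2 and 9. The group also held SLC1A2, SLC6A4, SLC6A13 and SLC7A7. The counts of SLC7A9 and of SLC6A14 did not overlap between the groups, and both genes were called when no filter on low counts was used. They are 2 of the 20 untested members with at least 1 count, and rest on 8 counts or fewer per library. How often genes at such counts separate or are called was not computed over all genes, so no change is read from them.

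Transcript levels of the tested members spanned more than 3 orders of magnitude and rested on few genes. SLC38A2 was the most abundant at 323 ± 10.1 FPKM in si-NC, followed by SLC7A5 at 164.9 ± 1.09, SLC38A1 at 88.8 ± 3.51, SLC1A5 at 57.6 ± 1.07 and SLC7A1 at 46.8 ± 2.19 (SD, n = 3). Ranges of neighbours in this order did not overlap. These 5 genes held 89.0% ± 0.160 of the summed FPKM of all members in si-NC and 87.9% ± 0.150 in si-STRIP2. The next were SLC6A8 at 14.03 ± 0.480 and SLC38A10 at 11.5 ± 0.251 FPKM, and every other member was under 10 FPKM. In si-STRIP2 the order of the first 5 was kept, but SLC38A1 (60.4 to 61.5 FPKM) and SLC1A5 (57.6 to 60.3 FPKM) had moved close together.

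**Figure D1:**
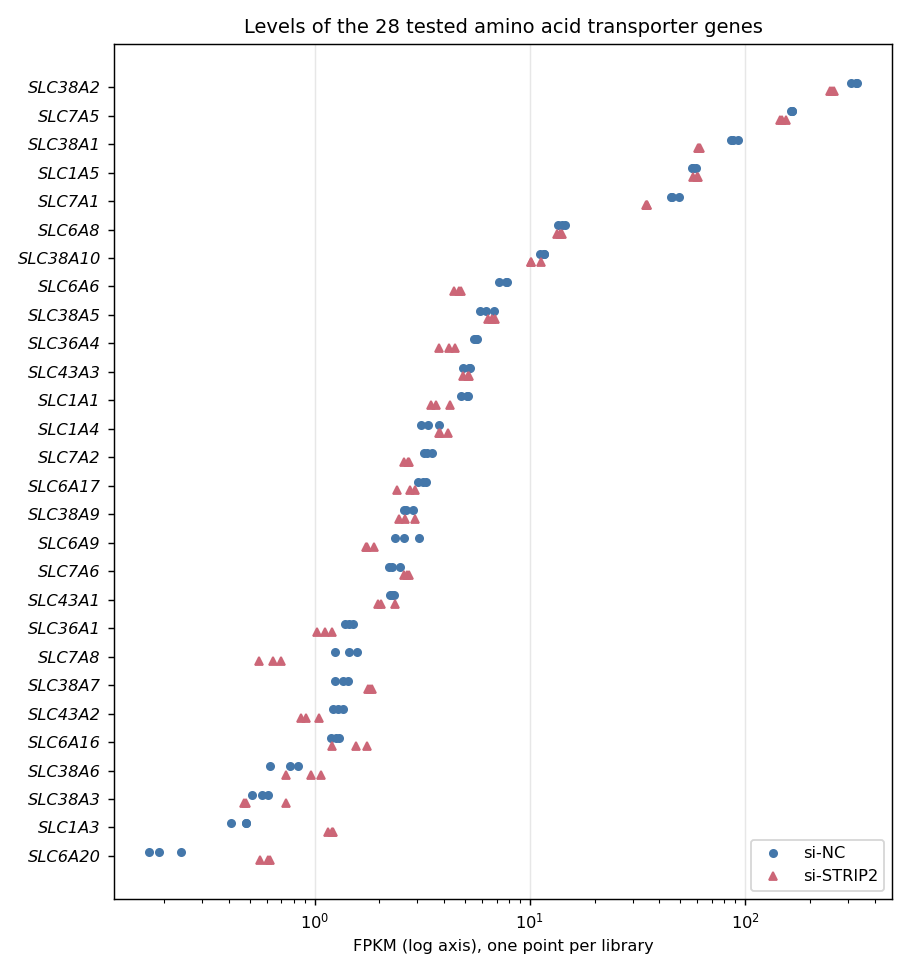
FPKM of the 28 tested members on a log axis, with 1 point per library (circles si-NC, triangles si-STRIP2), ordered by the si-NC mean. SLC38A2 sits near 300 FPKM and SLC6A20 near 0.2 FPKM; the symbols of SLC38A2, SLC38A1 and SLC7A1 are shifted to lower values in si-STRIP2 and those of SLC1A3 and SLC6A20 to higher values.

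The summed FPKM of the 56 members was 750.9, 780.3 and 764.7 for si-NC and 639.0, 637.8 and 627.6 for si-STRIP2. The mean in si-STRIP2 was 82.9% of the mean in si-NC. Most of the difference lay in the cell surface SLC38 carriers, whose sum was 418.8 ± 13.3 FPKM in control libraries and 321.4 ± 5.35 after knockdown. Large neutral amino acid carriers summed to 172.4 ± 1.27 and 156.3 ± 5.49 FPKM, and cationic carriers to 50.1 ± 2.32 and 37.6 ± 0.214. The neutral exchangers SLC1A4 and SLC1A5 summed to 61.05 ± 1.10 and 63.1 ± 1.55 FPKM (SD, n = 3 throughout). With SLC38A1 and SLC38A2 left out, the members' sum in si-STRIP2 was 90.7% of that in si-NC. These sums are descriptions and were not tested.

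**Figure D2:**
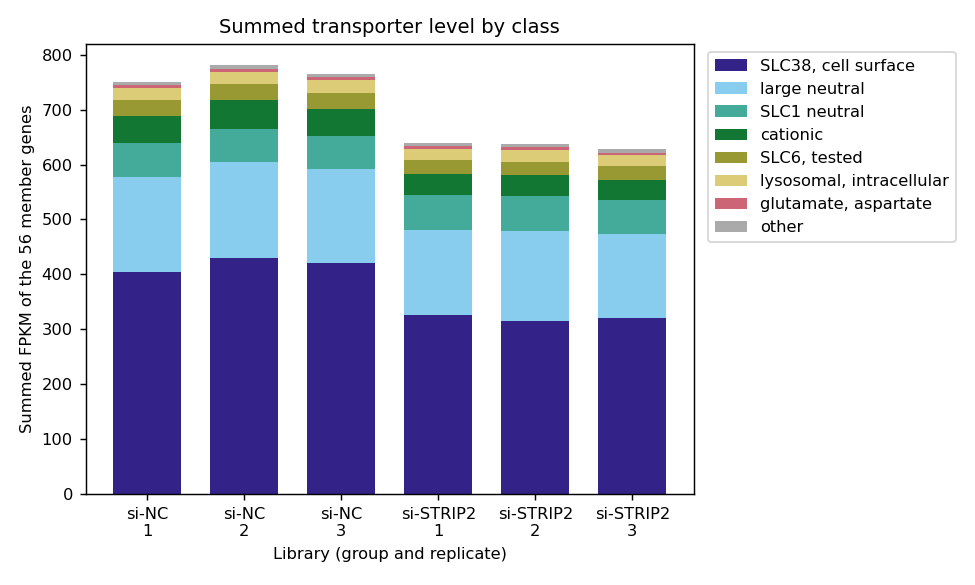
Summed FPKM of the members in each of the 6 libraries, stacked by class of carrier, from 0; the class SLC6 holds the 6 tested genes of that family, and the other 13 are in the class other. The si-NC bars reach 750.9 to 780.3 and the si-STRIP2 bars 627.6 to 639.0, and the segment of cell surface SLC38 carriers shrinks most.

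Each tested member was compared in a model fitted to the counts of all 15687 tested genes (edgeR quasi-likelihood F test, 2-sided, Benjamini-Hochberg adjustment over all of them). At an adjusted p under 0.05, 19 of the 28 tested members (67.9%) changed, where 54.8% of all tested genes did. Of these, 14 were lower and 5 higher in si-STRIP2, where 27.0% of all tested genes were lower and 27.8% higher. The median log2 fold change was -0.12 over the tested members and 0.014 over all tested genes. Of the members called, 11 differed by 1.3-fold or more, 8 lower and 3 higher, against 27.5% of all tested genes (14.3% lower, 13.2% higher). Only SLC7A8 (lower), SLC1A3 and SLC6A20 (both higher) reached 2-fold, as did 4.47% of all tested genes (2.91% lower, 1.56% higher). FPKM ranges of si-NC and si-STRIP2 were disjoint for 18 of the 28, against 58.6% of all tested genes. The number called higher was the less firm count, and was 3 without si-NC replicate 3.

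**Figure D3:**
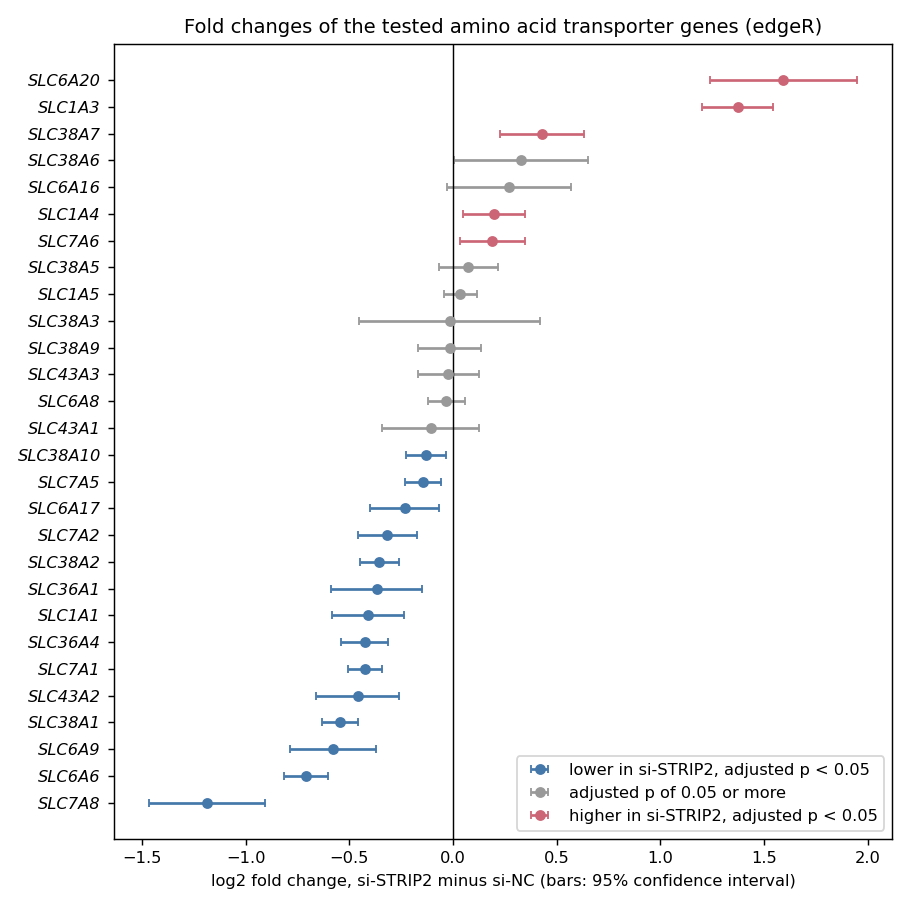
Log2 fold change of each tested member in si-STRIP2 relative to si-NC with its 95% confidence interval, not adjusted for multiple genes; blue marks members called lower, red those called higher and grey those not called. SLC7A8 is lowest at -1.19 and SLC6A20 highest at 1.59; most called members lie between -0.71 and -0.13.

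Promoter sequences of the carriers are shown because the ATF4 response acts through a short element, the C/EBP-ATF response element, whose core is TGATGNAA. The RefSeq table (GRCh38.p14, 250 bases before to 50 bases after each annotated start, several starts for some genes) holds 43 of the 56 members, with 63 promoters, and 24 of the 28 tested members, with 41. The core was searched on both strands. It was found in 5 of the 41 promoters of tested members (12.2%), in 3.62% of all 35116 promoters and in 2.02% of the promoters of tested genes. The 5 members were SLC38A1 and SLC7A1, which fell, SLC1A3 and SLC1A4, which rose, and SLC1A5, which did not pass the test. The heavy chain SLC3A2 also held a match. The sequences are printed on the strand of the gene, 5′ to 3′, with the match in capitals, which reads as the reverse complement of the core in SLC1A4 and SLC3A2. A match is a run of letters and no measure of binding.
SLC38A1 (chr12:46266506-46266527, minus strand): acccgaaTGATGAAAagggatc
SLC7A1 (chr13:29595667-29595688, minus strand): gcactgcTGATGAAAcctggcg
SLC1A3 (chr5:36596361-36596382, plus strand): aaatgacTGATGCAAagcaggg
SLC1A4 (chr2:64989385-64989406, plus strand): ctcccgtTTGCATCAtctccag
SLC1A5 (chr19:46784897-46784918, minus strand): aagtggcTGATGCAAgctgtcc
SLC3A2 (chr11:62881729-62881748, plus strand): ggactccTTACATCAgctcc

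Counted with the annotated start as base 1, the match began at base 8 in SLC7A1, at base 38 in SLC3A2, 4 bases before the start in SLC38A1, 7 before it in SLC1A4, 97 before it in SLC1A5 and 220 before it in SLC1A3. SLC38A1 and SLC7A1 thus hold the same 8 letters, TGATGAAA, within 15 bases of a start. A second search used the E-box CACGTG, read by MYC and by the lysosomal factors TFEB, TFE3 and MITF. It was in 8 of the 41 promoters of tested members (19.5%), in 7.26% of all promoters and in 9.11% of those of tested genes. SLC36A1, which encodes a lysosomal carrier, held the E-box at 2 places in 1 promoter. The other tested members with a match were SLC7A5 and SLC7A8, which fell, SLC38A7, which rose, and SLC1A5, SLC38A5, SLC43A1 and SLC6A16, which did not pass the test. Shown are SLC7A5, the most abundant exchanger, SLC36A1, which had the pair, and the lysosomal carrier SLC38A7 and SLC7A8 as the members with a match that rose and that had the lowest fold change.
SLC7A5 (chr16:87869625-87869644, minus strand): gacgacgCACGTGctccgag
SLC7A8 (chr14:23154510-23154529, minus strand): ttagaaaCACGTGctcagtt
SLC38A7 (chr16:58684744-58684763, minus strand): gcatgctCACGTGtctccgc
SLC36A1 (chr5:151447553-151447572, plus strand): aagggagCACGTGacctcgg
SLC36A1 (chr5:151447588-151447607, plus strand): gtgggatCACGTGatgaggt

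Of 4 tested SLC38 carriers of glutamine and small neutral amino acids at the cell surface, SLC38A2 and SLC38A1 fell and the others did not pass the test. Among all tested genes 54.8% were called, 27.0% of them all being lower. SLC38A2 (ENSG00000134294, chromosome 12, 46358188 to 46372773, minus strand), the adaptable system A carrier SNAT2, was at 311.8, 331.1 and 326.5 FPKM in si-NC and 258.0, 248.9 and 252.4 FPKM in si-STRIP2. All si-STRIP2 libraries lay below all si-NC libraries. Its log2 fold change was -0.36 (standard error 0.046, edgeR adjusted p = 5.25e-08), and 78.3% of the control FPKM was left. SLC38A1 (ENSG00000111371, chromosome 12, 46183063 to 46270017, minus strand), which encodes SNAT1, was at 86.2, 92.8 and 87.4 FPKM in si-NC and 61.1, 60.4 and 61.5 FPKM in si-STRIP2. The groups were well apart, with a log2 fold change of -0.54 (standard error 0.042, edgeR adjusted p = 5.99e-13). The pair are neighbours on the same strand of chromosome 12, 88170 bases apart with no other gene of the table wholly between them. SLC38A5, a sodium and proton coupled glutamine carrier, was at 6.33 ± 0.492 and 6.65 ± 0.257 FPKM (log2 fold change 0.073, 95% interval -0.070 to 0.22). SLC38A3 was at 0.563 ± 0.0503 and 0.563 ± 0.153 FPKM, with an interval of -0.45 to 0.42 that leaves room for a change of the size seen in SLC38A2.

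SLC1A5, the exchanger that takes up glutamine against other neutral amino acids, did not pass the test. It (ENSG00000105281, chromosome 19, 46774883 to 46788594, minus strand) was at 58.9, 57.1 and 56.9 FPKM among control libraries and 60.3, 59.8 and 57.6 FPKM after knockdown, and the groups overlapped. The log2 fold change was 0.035 (standard error 0.040, 95% interval -0.045 to 0.12, edgeR adjusted p = 0.467), so that the interval excludes a fall as large as those of SLC38A1 and SLC38A2. Its nearest relative SLC1A4, or ASCT1, an exchanger of alanine, serine and cysteine, was at 3.36, 3.77 and 3.11 FPKM in si-NC and 3.81, 4.17 and 3.79 in si-STRIP2. SLC1A4 rose by 0.20 on the log2 scale (standard error 0.073, edgeR adjusted p = 0.0210), with the highest si-NC library just under the lowest si-STRIP2 library. That call was lost under 7 of 16 alternatives, among them leaving out si-NC replicate 1 (edgeR adjusted p = 0.0670), si-NC replicate 3 (edgeR adjusted p = 0.123) or si-STRIP2 replicate 2 (edgeR adjusted p = 0.120).

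Of 5 tested carriers of large neutral amino acids, SLC7A5, SLC7A8 and SLC43A2 fell, SLC7A6 rose and SLC43A1 did not pass the test. Among all tested genes 27.0% were lower and 27.8% higher. SLC7A5 (ENSG00000103257, chromosome 16, 87830023 to 87869507, minus strand), the leucine and glutamine exchanger LAT1, was at 165.4, 165.6 and 163.7 FPKM in si-NC and 147.9, 155.3 and 145.7 FPKM in si-STRIP2. The groups did not overlap. SLC7A5 fell by 0.14 on the log2 scale (standard error 0.042, edgeR adjusted p = 0.00477), which is a 1.10-fold change. SLC7A8 (ENSG00000092068, chromosome 14, 23125295 to 23183674, minus strand), the related exchanger LAT2, was at 1.58, 1.44 and 1.25 FPKM in si-NC and 0.64, 0.70 and 0.55 FPKM in si-STRIP2. It had the lowest fold change of the tested members, at -1.19 (standard error 0.138, edgeR adjusted p = 5.55e-09), and rested on 129 to 206 counts in si-NC and 57 to 73 in si-STRIP2. SLC43A2, the facilitative carrier LAT4 (ENSG00000167703, chromosome 17, 1569268 to 1628886, minus strand), was at 1.28, 1.22 and 1.36 FPKM in si-NC and 0.91, 1.05 and 0.86 in si-STRIP2. The groups did not overlap, and SLC43A2 fell by 0.46 on the log2 scale (standard error 0.098, edgeR adjusted p = 0.000159).

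The other facilitative carrier, SLC43A1 or LAT3, was at 2.28 ± 0.0551 and 2.13 ± 0.212 FPKM and did not pass the test (edgeR adjusted p = 0.437, 95% interval -0.34 to 0.12). SLC43A3 did not pass it either, at 5.14 ± 0.215 and 5.08 ± 0.183 FPKM. SLC7A6, the light chain y+LAT2, which exports arginine in return for glutamine, was the only tested SLC7 member called higher, with 2.33 ± 0.133 FPKM against 2.67 ± 0.0764 (0.19 on the log2 scale, standard error 0.078, edgeR adjusted p = 0.0380). It is uncertain, since 44.4% of its exonic bases in GENCODE 29 are also exon of SLC7A6OS on the opposite strand, a gene that held 34.3% as many counts, and whether counting used strand is not stated. The call of SLC7A6 was lost under 11 of 16 alternatives, among them leaving out si-NC replicate 2 or 3 or si-STRIP2 replicate 1 or 2 (edgeR adjusted p = 0.0732 to 0.123).

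SLC7A5 and its heavy chain changed by a like amount. SLC3A2 was at 71.2, 69.5 and 71.7 FPKM in si-NC and 64.3, 64.0 and 64.2 FPKM in si-STRIP2, and fell by 0.15 on the log2 scale (standard error 0.040, edgeR adjusted p = 0.00253). The ratio of SLC7A5 to SLC3A2 FPKM had a mean of 2.33 ± 0.0518 before and 2.33 ± 0.0844 after knockdown (SD, n = 3). SLC7A11, which shares that heavy chain, was at 56.1, 64.1 and 59.6 FPKM in si-NC, near the level of SLC1A5, and at 25.2, 24.9 and 24.9 FPKM in si-STRIP2. Its ratio to SLC3A2 was 0.847 ± 0.0685 and 0.390 ± 0.00187. For SLC7A8 the same ratio was 0.0201 ± 0.00245 and 0.00982 ± 0.00120. These ratios compare transcripts and were not tested. The other heavy chain, SLC3A1, which pairs with SLC7A9, had 1 to 4 counts per library.

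Both tested cationic carriers, SLC7A1 and SLC7A2, fell, where 27.0% of all tested genes were lower, while SLC7A3 was not tested. SLC7A1 (ENSG00000139514, chromosome 13, 29509414 to 29595688, minus strand), the main cationic carrier CAT1, was at 45.8, 49.3 and 45.2 FPKM in si-NC and 34.7, 35.01 and 34.9 FPKM in si-STRIP2. The si-STRIP2 libraries lay close together and below all si-NC libraries. The log2 fold change was -0.43 (standard error 0.040, edgeR adjusted p = 5.32e-11), with 74.6% of the control FPKM left. SLC7A2, which encodes CAT2, was at 3.35 ± 0.144 and 2.69 ± 0.0721 FPKM (SD, n = 3). It fell by 0.32 on the log2 scale (standard error 0.070, edgeR adjusted p = 0.000255) with groups that did not overlap.

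The carriers of acidic amino acids went in opposite directions. SLC1A1 (ENSG00000106688, chromosome 9, 4490468 to 4587469, plus strand), the glutamate, aspartate and cysteine carrier EAAT3, was at 5.16, 4.81 and 5.11 FPKM in si-NC and 3.47, 4.25 and 3.68 FPKM in si-STRIP2. It fell by 0.41 on the log2 scale (standard error 0.085, edgeR adjusted p = 0.000109). SLC1A3 (ENSG00000079215, chromosome 5, 36596588 to 36688334, plus strand), the glutamate and aspartate carrier EAAT1, was at 0.48, 0.48 and 0.41 FPKM in si-NC and 1.22, 1.16 and 1.2 FPKM in si-STRIP2. Its counts went from 151 to 222 in si-NC to 431 to 488 in si-STRIP2, with no overlap. SLC1A3 rose by 1.37 on the log2 scale (standard error 0.084, edgeR adjusted p = 1.37e-15), a 2.59-fold change. By FPKM, SLC1A1 stayed the higher, at 3.80 ± 0.404 against 1.19 ± 0.0306 in si-STRIP2 (SD, n = 3). That order rests on exonic sizes of 3974 bases for SLC1A1 and 21227 for SLC1A3. By counts SLC1A3 was the higher in si-STRIP2, at 431 to 488 against 252 to 295 for SLC1A1. Which transcript was the more abundant was not tested.

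**Figure D4:**
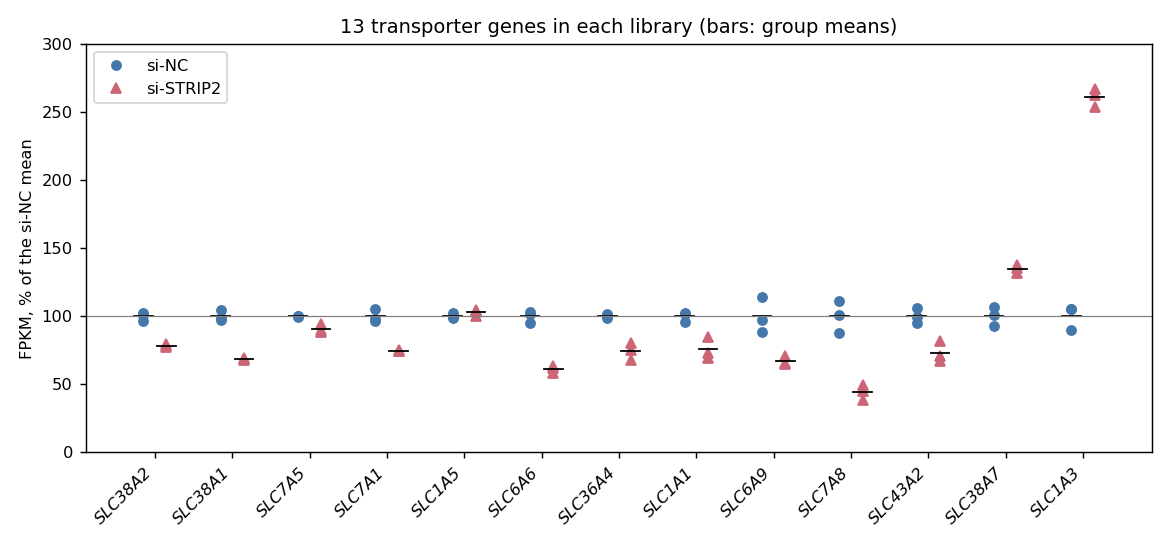
FPKM of 13 members in each library as a percentage of the si-NC mean of that gene, from 0, with short bars for group means (circles si-NC, triangles si-STRIP2). SLC38A2, SLC38A1, SLC7A1, SLC6A6 and SLC7A8 lie below their si-NC points, SLC1A5 at their level, and SLC1A3 near 261%.

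In the SLC6 family, 3 of the 6 tested members fell and 1 rose, where 27.0% of all tested genes were lower and 27.8% higher. SLC6A6 (ENSG00000131389, chromosome 3, 14402576 to 14489349, plus strand), the taurine carrier, was at 7.19, 7.73 and 7.83 FPKM in si-NC and 4.71, 4.44 and 4.78 FPKM in si-STRIP2. The groups were far apart, and SLC6A6 fell by 0.71 on the log2 scale (standard error 0.052, edgeR adjusted p = 1.60e-13). SLC6A9 (ENSG00000196517, chromosome 1, 43991500 to 44031467, minus strand), the glycine carrier GLYT1, was at 2.61, 2.37 and 3.05 FPKM in si-NC and 1.76, 1.89 and 1.74 FPKM in si-STRIP2. SLC6A9 fell by 0.58 on the log2 scale (standard error 0.102, edgeR adjusted p = 1.10e-05). CCDC24, on the opposite strand, shares 7.83% of its exonic bases and held 68.4% as many counts. SLC6A17, a vesicle carrier of neutral amino acids in neurons, had a small fall from 3.17 ± 0.141 to 2.70 ± 0.257 FPKM (edgeR adjusted p = 0.0150). With si-STRIP2 replicate 1 left out, SLC6A17 was not called (edgeR adjusted p = 0.162).

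SLC6A20, a carrier of proline and other imino acids, had the highest fold change of the tested members from a low level. It had 34, 30 and 37 counts in si-NC and 104, 90 and 98 in si-STRIP2, or 0.17 to 0.24 and 0.56 to 0.62 FPKM. SLC6A20 rose by 1.59 on the log2 scale (standard error 0.175, edgeR adjusted p = 1.71e-09), a 3.02-fold change, and stayed under 1 FPKM. SLC6A8, the creatine carrier and the most abundant of the family, was at 14.03 ± 0.480 and 13.7 ± 0.368 FPKM (log2 fold change -0.033, 95% interval -0.12 to 0.056, edgeR adjusted p = 0.541). Its near-identical copy SLC6A10P held 2 counts in all, which does not show how reads that match both genes were counted. SLC6A16, a member with no established cargo, was at 1.19, 1.26 and 1.3 FPKM in si-NC and 1.75, 1.55 and 1.21 in si-STRIP2, and did not pass the test (edgeR adjusted p = 0.117). It passed without si-STRIP2 replicate 3, its lowest si-STRIP2 library (edgeR adjusted p = 0.0349).

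Carriers of lysosomes and other inner membranes were mixed. SLC36A4 (ENSG00000180773, chromosome 11, 93144174 to 93197991, minus strand), a carrier of proline and tryptophan, was at 5.67, 5.60 and 5.51 FPKM in si-NC and 4.5, 3.80 and 4.22 FPKM in si-STRIP2. SLC36A4 fell by 0.43 on the log2 scale (standard error 0.056, edgeR adjusted p = 5.99e-08) with no overlap of the groups. SLC36A1, the proton-coupled lysosomal carrier PAT1, was at 1.44 ± 0.0651 FPKM and fell to 1.12 ± 0.0900 (-0.37 on the log2 scale, standard error 0.107, edgeR adjusted p = 0.00399). SLC38A7 (ENSG00000103042, chromosome 16, 58665109 to 58684770, minus strand), which lets glutamine out of lysosomes, was at 1.24, 1.35 and 1.43 FPKM in si-NC and 1.84, 1.77 and 1.81 FPKM in si-STRIP2. It rose by 0.43 on the log2 scale (standard error 0.099, edgeR adjusted p = 0.000400). SLC38A9, the arginine sensor of mTORC1, did not pass the test at 2.71 ± 0.150 and 2.68 ± 0.238 FPKM (95% interval -0.17 to 0.13, edgeR adjusted p = 0.867).

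SLC38A10, of less known cargo, had a small fall from 11.5 ± 0.251 to 10.5 ± 0.687 FPKM (log2 fold change -0.13, edgeR adjusted p = 0.0207) in groups that overlapped. Its call was lost without si-NC replicate 1 (edgeR adjusted p = 0.0797), si-STRIP2 replicate 1 (edgeR adjusted p = 0.140) or si-STRIP2 replicate 3 (edgeR adjusted p = 0.104). SLC38A6 did not pass the test at 0.743 ± 0.112 and 0.923 ± 0.168 FPKM (edgeR adjusted p = 0.0792), but passed without si-NC replicate 2 (edgeR adjusted p = 0.0488) or si-STRIP2 replicate 2 (edgeR adjusted p = 0.0197). SLC38A6 is uncertain too, since TRMT5 on the opposite strand shares 4.76% of its exonic bases and held 1330% as many counts.

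Genes that sense amino acid supply and control the carriers were examined beside them. ATF4 was at 193.3 ± 1.56 FPKM and rose to 231.1 ± 6.01 (0.25 on the log2 scale, standard error 0.041, edgeR adjusted p = 2.60e-06). Of 25 tested genes of the amino acid response, which lie upstream or downstream of ATF4 and exclude the carriers, 14 were lower and 6 higher, and the median difference was -0.20 on the log2 scale. The 3 with the smallest adjusted p fell: CEBPG, a partner of ATF4, from 80.5 ± 2.97 to 45.7 ± 1.86 FPKM, PPP1R15A, which ends the response, from 47.8 ± 1.03 to 27.5 ± 1.02, and TRIB3, an inhibitor of ATF4, from 74.96 ± 1.62 to 44.3 ± 1.27 (edgeR adjusted p at most 3.80e-17). The 6 that rose were ATF4 itself and the enzymes PHGDH, PSAT1, SHMT2, ASNS and ALDH18A1, with PHGDH, the first enzyme of serine synthesis, going from 17.8 ± 0.0721 to 24.1 ± 0.827 FPKM (edgeR adjusted p = 3.04e-11). Other enzymes of the list did not rise. PSPH, also of serine synthesis, fell from 28.2 ± 1.42 to 18.9 ± 0.810 FPKM (edgeR adjusted p = 3.91e-12). CTH and CHAC1 were lower too, and MTHFD2 and PYCR1 did not pass the test. These enzymes were named after their values were seen. Of all tested genes 27.0% were lower and 27.8% higher.

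Of 28 tested genes of amino acid sensing at mTORC1, 10 were higher and 8 lower, with a median of 0.023; the 64.3% called is near the 54.8% of all tested genes. RRAGD, a GTPase that recruits mTORC1 to lysosomes, fell from 7.56 ± 0.395 to 4.33 ± 0.472 FPKM (edgeR adjusted p = 1.54e-11). SESN2, a leucine sensor that is also on the amino acid response list, fell from 20.4 ± 0.951 to 14.1 ± 0.352 FPKM, and its relative SESN1 rose from 2.30 ± 0.133 to 3.54 ± 0.0929 FPKM (edgeR adjusted p = 4.75e-11 and 1.04e-08). Of 7 regulators of carrier transcription and turnover, 5 were lower and 1, ATF4, which is on both lists, higher, with a median of -0.29. Over all tested genes the shares were 27.0% lower and 27.8% higher, and the median was 0.014. Among the regulators, MITF fell from 1.37 ± 0.138 to 0.640 ± 0.0557 FPKM and TFE3 from 8.13 ± 0.203 to 5.93 ± 0.105 (edgeR adjusted p = 2.50e-09 and 1.84e-07). Both are factors of lysosomal genes. Their relative TFEB was at 0.253 ± 0.0208 and 0.350 ± 0.0458 FPKM and did not pass the test (log2 fold change 0.46, edgeR adjusted p = 0.0711). MYC, also named above as a reader of the E-box, fell from 62.9 ± 1.16 to 54.2 ± 0.578 FPKM (log2 fold change -0.22, edgeR adjusted p = 1.29e-05). NEDD4L, a ubiquitin ligase that removes carriers from the surface, fell from 2.45 ± 0.0493 to 1.96 ± 0.0153 FPKM (edgeR adjusted p = 1.43e-07).

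**Figure D5:**
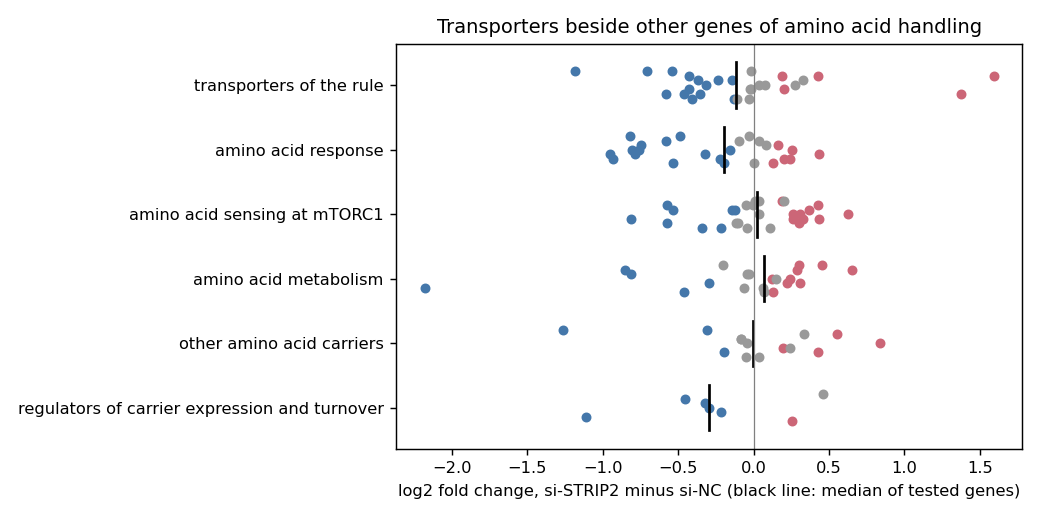
Log2 fold changes of the tested transporters and of 5 lists of genes of amino acid handling; each point is a gene (blue called lower, red called higher, grey not called) and black lines are medians of the tested genes. Transporters (median -0.12) and the amino acid response (median -0.20) lie to the left of 0, and sensing genes (median 0.023) around it.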

How the data were processed

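Libraries of 2 groups were compared, 3 per group. Per the file headers, the deposited table gives for each Ensembl gene a raw count and an FPKM value per library and an exonic size. The authors' FPKM, recomputed from count, size and column total, differed by at most 0.005. HISAT2 2.2.1, HTSeq 0.6.1, cutadapt 1.9.1 and GRCh38.p13 are named in the submitters' processing notes. The annotation release and the strand setting of counting are not given in the sources used here; the kit is directional per the labels' protocols. No row lacked a gene.

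Counts were analysed in R 4.3.3 with edgeR 4.0.16: filterByExpr (minimum count 10) kept 15687 genes with 99.8% of counts, TMM factors were 0.990 to 1.01, and group was the only term. Standard errors are the absolute log2 fold change over the square root of F. The test was tried on simulated data for si-STRIP2 against si-NC over 15687 genes, with shares taken over planted genes that passed the count filter. It recovered 90.7% and 90.2% of these at log2 fold changes of -1 and 1, and 57.1% and 63.4% at -0.5 and 0.5. The simulation changed 200 genes, whereas 54.8% of tested genes were called in the data. Fewer changed genes make the adjustment stricter, so these shares do not give the recovery in the data. Alternatives used DESeq2 1.42.0, limma 3.58.1, other scalings and filters, a replicate block and each library left out.

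Members given in full were called with at least 1.3-fold change and 1 FPKM in the higher group, or had at least 20 FPKM; others are summarised. For each companion list the 3 called genes with the smallest adjusted p were named, with 1 FPKM or more. Members and lists were chosen with earlier results of these data known. The full values of SLC6A20, SLC6A16 and SLC1A4, EPCAM, KRT8, KRT20, CDX1, CDX2, VIL1, TFEB, MYC, ASL and SLC25A13, and the E-box search were added after values were seen.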

Additional observations from a re-analysis of the deposited data

How the results depend on the processing

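Results were recomputed under up to 16 alternatives per gene. In place of 19 members called (5 higher, 14 lower), a test against a 1.2-fold change (edgeR glmTreat) called 10, 2 higher and 8 lower: SLC7A8, SLC6A6, SLC6A9, SLC38A1, SLC43A2, SLC7A1, SLC36A4, SLC38A2, SLC1A3 and SLC6A20. The number called higher was 3 under DESeq2, 3 with a filter of 1 FPKM in 3 libraries, and 2 under limma on log2(FPKM + 1) or log2(FPKM + 0.1); SLC6A20 does not pass that filter. Without a filter on low counts 20 members were called, among them SLC6A14 and SLC7A9, which rest on 8 counts or fewer per library. With each library left out, 16 to 19 were called, 3 to 6 higher and 12 to 14 lower. The summed level was 83.2% of control after rescaling to TPM. Scaling by RLE, upper quartiles or totals alone changed no call of a member.

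No called member changed sign under any alternative. Uncalled ones near 0 did: SLC38A3 ranged from -0.26 to 0.093 with each library left out, SLC43A3 from -0.066 to 0.016 and SLC38A9 from -0.086 to 0.033. SLC38A3 was at 0.062, 0.092 and 0.093 without si-NC replicate 1, si-STRIP2 replicate 2 and si-STRIP2 replicate 3, SLC43A3 at 0.0033 and 0.016 without si-NC replicate 1 and si-STRIP2 replicate 1, and SLC38A9 at 0.017, 0.0046 and 0.033 without si-NC replicate 2, si-STRIP2 replicate 1 and si-STRIP2 replicate 3. The cause was not tested. SLC38A3 and SLC38A6 had 32 to 111 counts per library.

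The replicate numbers share only a number: deviations of same-numbered libraries correlated at -0.086, -0.013 and -0.072. The replicate block called 18 members, losing SLC7A6 (0.19 on the log2 scale, edgeR adjusted p = 0.0505).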

Other observations

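Of 21 tested genes of amino acid metabolism, 9 were higher and 5 lower, with a median log2 fold change of 0.071. The 66.7% called compares with 54.8% of all tested genes. ASNS and ALDH18A1, which were higher, and PYCR1, which was not called, are also on the amino acid response list, so the lists are not separate. The 3 metabolism genes with the smallest adjusted p all fell. ARG2, the mitochondrial arginase, fell from 8.89 ± 0.371 to 1.96 ± 0.0611 FPKM, GOT1, the cytosolic aspartate transaminase, from 136.8 ± 5.40 to 76.1 ± 1.51, and ASS1, the argininosuccinate synthase, from 30.4 ± 0.714 to 17.3 ± 0.273 (SD, n = 3; edgeR adjusted p = 1.41e-18, 3.10e-18 and 1.21e-16). ASL, the enzyme that follows ASS1, rose from 2.72 ± 0.307 to 3.18 ± 0.326 FPKM in groups that overlapped (edgeR adjusted p = 0.0371). ARG2 is uncertain, since 37.4% of its exonic bases are also exon of VTI1B on the opposite strand, a gene that held 604.7% as many counts.

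Of 14 tested carriers of amino acids outside the rule, 4 were higher and 3 lower, with a median of -0.0014; the 50% called is near the 54.8% of all tested genes. SLC25A12, a mitochondrial carrier of aspartate and glutamate, rose from 3.82 ± 0.287 to 5.60 ± 0.278 FPKM (edgeR adjusted p = 1.76e-08). SLC25A22, a mitochondrial carrier of glutamate, rose from 3.65 ± 0.350 to 4.91 ± 0.396 FPKM (edgeR adjusted p = 4.15e-05). SLC25A13, the other mitochondrial aspartate and glutamate carrier, fell from 7.59 ± 0.656 to 6.15 ± 0.128 FPKM (edgeR adjusted p = 0.000430). SLC7A11 had the only change of at least 2-fold on that list.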
